A study of Mus musculus with 7 samples.

Results

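The genes described here are 36 genes of the NRF2 pathway and of antioxidant defence, out of 34745 genes in the count table of 3T3-L1 cells treated with exosomes of adipose tissue. They were taken by gene name from a fixed list, and all 36 were found. They fall into NRF2 and its inhibitor KEAP1 (2 genes), glutathione genes (14), thioredoxin genes (4), NADPH supply (5), iron and heme genes (4), superoxide, peroxide and quinone enzymes (5) and metallothioneins (2). Each had at least 33 counts and at least 1 CPM in every library, so none was lost to a filter on low values. CPM, the unit of level used below, are a gene's counts relative to the total of its library, corrected by a TMM factor.

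3T3-L1 cells are mouse fibroblasts of an established line, used as a model of fat cell differentiation. The cells, labelled wild type and embryonic fibroblast in type but described as mature adipocytes of days 8 to 10, received for 48 h exosomes released in culture by pieces of adipose tissue (AT-Exos) from wild-type C57BL/6 mice. The 7 groups were HFD-vWAT-Exos and LFD-vWAT-Exos, HFD-iWAT-Exos and LFD-iWAT-Exos, HFD-BAT-Exos and LFD-BAT-Exos, and an untreated control. HFD and LFD stand for donors fed a high-fat or a low-fat diet, vWAT and iWAT for visceral and inguinal white adipose tissue, and BAT for brown adipose tissue. Donors were age-matched, bought as young mice and kept on their diet for months, and how many animals stood behind each preparation was not given in the sources used here. The labels give the control as without treatment, while the legends of the study's supplement name a buffer, so an effect of the vehicle cannot be told apart from that of the exosomes.

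Each group had 1 library, so a difference between 2 groups had no replicate check. Total counts were 13.5 M with LFD-vWAT-Exos and 17.8 to 24.3 M in the other 6 libraries, and a count of 0 allowed up to 0.122 to 0.234 CPM. The share of counts from mitochondrially encoded genes was 1.10% with LFD-vWAT-Exos and 2.19% to 2.60% in the others. Most adipocyte markers did not bear out the description as mature adipocytes. For 8 of 13 adipocyte markers, including Adipoq, Plin1 and Cebpa, no library reached 1 CPM, and the sum of the 13 was 355 CPM with LFD-vWAT-Exos and 1156 to 1416 CPM in the others. All 10 preadipocyte and fibroblast markers were above that level, with sums of 37073 CPM and 51235 to 60879 CPM. The sum over macrophage markers was 118 CPM with LFD-vWAT-Exos against 33.7 to 47.4 CPM, with 5 of 10 (Adgre1, Itgam, Marco, Fcgr1 and Cd163) below 1 CPM in every library. Endothelial markers summed to 5.70 CPM against 2.39 to 3.63 CPM, skeletal muscle markers to 2.42 CPM against 15.0 to 20.8 CPM, brown adipocyte markers to 2.81 CPM against 1.30 to 1.62 CPM, and blood markers to 1.86 to 2.88 CPM over the 7 libraries. These values move with the LFD-vWAT-Exos results below, and their part in them was not tested.

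NRF2, the product of Nfe2l2, is a transcription factor that KEAP1 holds in the cytoplasm and passes to degradation by the proteasome. When electrophiles or oxidants modify KEAP1, NRF2 escapes, pairs with a small MAF protein and binds antioxidant response elements (AREs) in genes that make glutathione, run the thioredoxin cycle, supply NADPH, break down heme and export conjugates. Metallothioneins are small cysteine-rich proteins that bind zinc and copper, and their genes respond above all to MTF1, a zinc sensor that binds metal response elements (MREs). NRF2 is expressed in preadipocytes and adipocytes, where glutathione and NADPH also serve lipid metabolism.

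The ARE core TGACNNNGC was searched on both strands in windows of 300 bases, 250 before and 50 after each annotated start site, taken from RefSeq on build GRCm38.p6. Windows were found for 31 of the 36 genes, and there were none in the table used for Hmox1, Gclc, Gsr, Abcc1 and Gsta4. The core stood in a window of 11 of the 31 genes (35.5%) and in 26.2% of their 42 windows. It stood in 12.4% of all 32851 windows and in 14.0% of all genes. The members were listed as genes of the NRF2 pathway and antioxidant defence, so their higher share is no test. Of the genes at least 2-fold above every other library with LFD-vWAT-Exos, 5 had a window. The ARE core occurred in 3 of these 5 (Nfe2l2, Srxn1 and Pgd) and in 8 of the 26 others. In Srxn1 and Pgd it lay after the start site. The MRE cores described below occurred in 3 of these 5 and in 4 of the 26 others. Over the 31 genes their share was 22.6%, below the 28.2% of all genes. The 5 genes were chosen by their own levels, so these shares are no test of a cause. A match of letters is not a binding site, and a missing match says only that these letters are not in this window. Only this form of the ARE core was searched, so the ARE shares leave out forms with other fixed letters. The core of Me1 starts before the start site and runs across it. The 9 stretches below, core in capitals, are shown because they are all members whose core starts before the start site, among them Nfe2l2. They read 5′ to 3′ along the strand of the gene and start the core 240 (Nfe2l2), 134 (Gclm), 92 (Txnrd1), 133 (Prdx1), 57 (G6pdx), 6 (Me1), 56 (Mgst1), 56 (Sod1) and 79 (Mt2) bases before the start site. Their positions are chr2:75704875-75704913 (minus strand) for Nfe2l2, chr3:122245403-122245451 (plus) for Gclm, chr10:82859094-82859142 (plus) for Txnrd1, chr4:116685446-116685494 (plus) for Prdx1, chrX:74428909-74428957 (minus) for G6pdx, chr9:86695892-86695940 (minus) for Me1, chr6:138140451-138140499 (plus) for Mgst1, chr16:90220686-90220734 (plus) for Sod1 and chr8:94172519-94172567 (plus) for Mt2.
Nfe2l2: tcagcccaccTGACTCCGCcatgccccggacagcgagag
Gclm: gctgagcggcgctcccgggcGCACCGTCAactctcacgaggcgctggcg
Txnrd1: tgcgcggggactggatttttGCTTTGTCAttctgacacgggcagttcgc
Prdx1: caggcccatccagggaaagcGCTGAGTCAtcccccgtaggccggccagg
G6pdx: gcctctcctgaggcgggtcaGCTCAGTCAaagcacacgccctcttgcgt
Me1: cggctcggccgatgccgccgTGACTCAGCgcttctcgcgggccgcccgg
Mgst1: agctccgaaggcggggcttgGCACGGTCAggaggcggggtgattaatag
Sod1: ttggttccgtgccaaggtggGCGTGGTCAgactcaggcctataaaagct
Mt2: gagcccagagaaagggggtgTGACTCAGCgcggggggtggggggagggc

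In Me1, Mt2 and Prdx1 the core holds TGANTCA, the element bound by AP-1 (TRE), a motif added to the search after the files had been seen. TGANTCA occurred in 7 of the 31 genes, and in 8.97% of all genes and 7.81% of all windows. Srxn1, the gene with the most even level over 6 of the libraries, held 2 of them in the 250 bases before its start site (chr2:152105274-152105523, plus strand), starting 102 and 45 bases before it and shown in capitals. Its only match to the ARE core as searched, TGACNNNGC, lay after the start site. The TRE that starts 45 bases before the start site is followed by the letters GC, which also end that core. It differs from the core by a G in place of the C, a form that was not searched.
Srxn1: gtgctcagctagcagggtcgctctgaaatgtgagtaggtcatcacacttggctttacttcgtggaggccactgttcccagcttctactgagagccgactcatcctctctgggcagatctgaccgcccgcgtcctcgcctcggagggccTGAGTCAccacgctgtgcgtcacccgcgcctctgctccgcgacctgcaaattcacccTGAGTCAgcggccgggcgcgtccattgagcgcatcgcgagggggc

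The LFD-vWAT-Exos library held most of the variation of these genes. With it, Hmox1 (heme oxygenase), Gclc (the catalytic subunit of glutathione synthesis), Nfe2l2 itself, Srxn1, Txnrd1, Abcc1, Gsr, Pgd, Slc7a11 and Mt1 were high, whereas Gsta4, Keap1, Sod2, Txn1, Taldo1, Blvrb and Fth1 were low and Nqo1, Prdx1, Sod1 and Gstp1 lay within the range of the other 6 libraries. In all, 17 of the 36 genes had their highest level with LFD-vWAT-Exos and 15 their lowest, beside 38.0% and 41.8% of 12935 genes with at least 1 CPM in any library. At least 2-fold above the highest of the other libraries were 9 genes (25.0%, against 7.67% of all genes), namely Gclc, Hmox1, Abcc1, Mt1, Srxn1, Pgd, Nfe2l2, Gsr and Slc7a11, with factors of 7.92 for Gclc and 7.52 for Hmox1 and 2.06 to 2.76 for the others. At least 2-fold below the lowest was 1 gene (2.78%, against 12.4%), Gsta4. This library also stood apart over all genes, with the lowest depth and mitochondrial share, so these values describe that library. In bulk RNA, fewer cells of a type and less RNA per cell cannot be told apart.

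**Figure D1:**
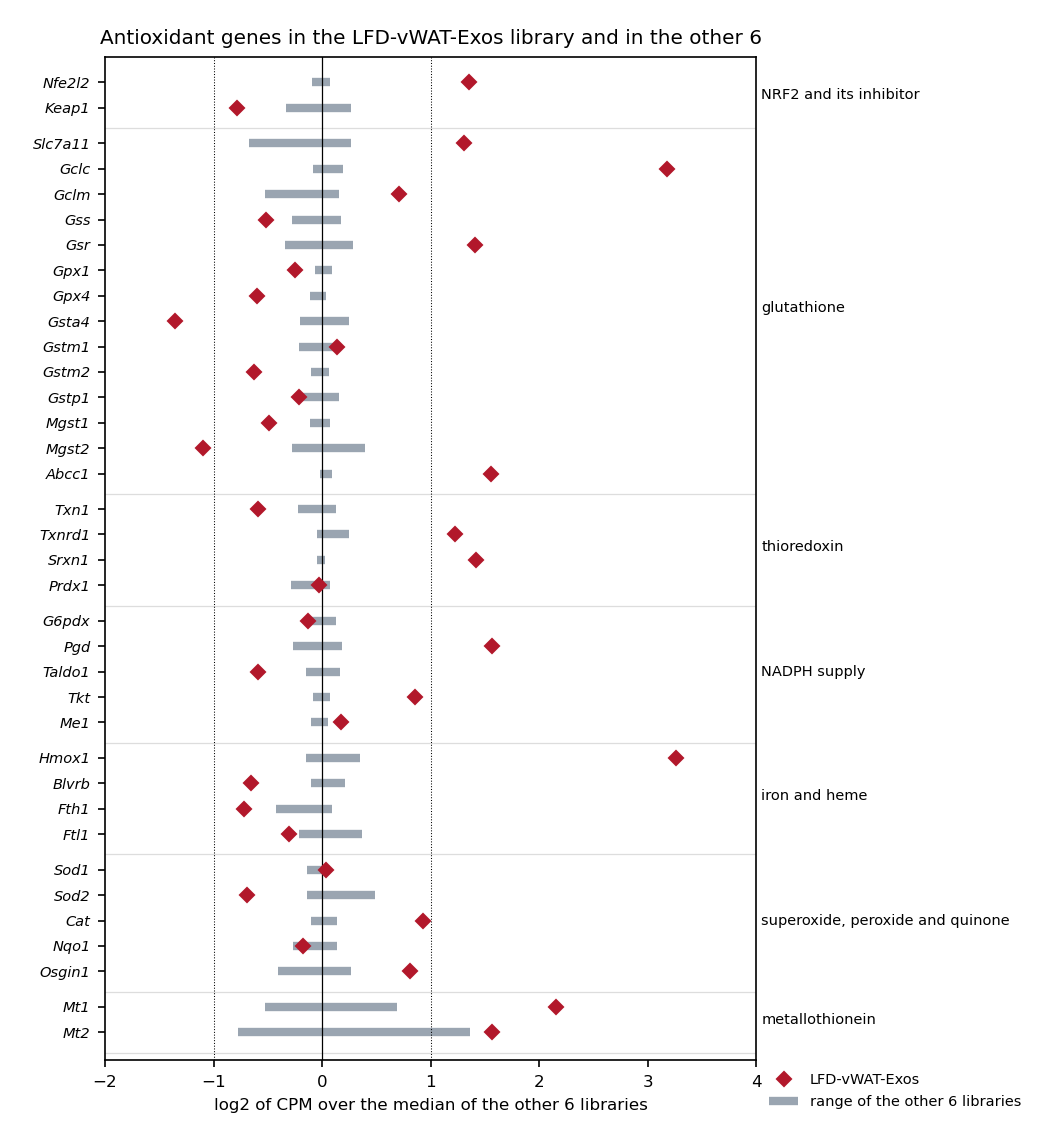
Each gene's level with LFD-vWAT-Exos (diamond) and the range over the other 6 libraries (grey bar), as log2 of CPM over the median of those 6, with dotted lines at 2-fold. The diamonds of Hmox1 and Gclc lie farthest to the right and that of Gsta4 farthest to the left, while the grey bars are short except for Mt1 and Mt2.

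Below, apart is said of a gene whose levels in 2 libraries were 2-fold or more from each other with an exact 95% counting interval that left out equal levels. Between HFD-vWAT-Exos and LFD-vWAT-Exos, the comparison that asks how obesity of the donor alters visceral exosomes, 2 of the 36 genes were apart and higher (17.6% of all genes were) and 12 were apart and lower (12.0% of all genes). Between LFD-vWAT-Exos and the control 11 were higher (13.2% of all genes) and 2 lower (17.3%), and between LFD-vWAT-Exos and LFD-iWAT-Exos 10 were higher (11.9%) and 3 lower (17.1%). These 3 comparisons share the LFD-vWAT-Exos library and are not independent. The median log2 ratio of the 36 genes was -0.08 for HFD-vWAT-Exos over LFD-vWAT-Exos (0.04 for all genes) and -0.07 for LFD-vWAT-Exos over the control (-0.04 for all genes), so the members differed in both directions around a median near that of all genes.

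NRF2 and KEAP1 lay on opposite sides in that library. Nfe2l2 was at 101 CPM with HFD-vWAT-Exos and 262 CPM with LFD-vWAT-Exos, at 96.3 and 106 CPM with HFD-iWAT-Exos and LFD-iWAT-Exos, at 108 and 103 CPM with HFD-BAT-Exos and LFD-BAT-Exos, and at 102 CPM in the control. The 6 libraries other than LFD-vWAT-Exos thus spanned 1.12-fold. Nfe2l2 was 2.60-fold lower with HFD-vWAT-Exos than with LFD-vWAT-Exos (95% counting interval 2.46 to 2.74) and 2.58-fold higher with LFD-vWAT-Exos than in the control (2.44 to 2.72).

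Keap1 was at 49.6 CPM with HFD-vWAT-Exos and 27.6 CPM with LFD-vWAT-Exos, at 46.2 and 37.7 CPM with HFD-iWAT-Exos and LFD-iWAT-Exos, at 48.6 and 46.0 CPM with HFD-BAT-Exos and LFD-BAT-Exos, and at 57.0 CPM in the control. The control was thus the highest of the 7, with LFD-vWAT-Exos and then LFD-iWAT-Exos at the low end. Keap1 was 2.06-fold lower with LFD-vWAT-Exos than in the control (1.83 to 2.33), with a log2 ratio of -0.94, below the 2-fold limit, on the FPKM scale plus 1. It was 1.80-fold higher with HFD-vWAT-Exos than with LFD-vWAT-Exos (1.59 to 2.03), short of 2-fold. The number of Nfe2l2 counts per Keap1 count was 9.49 with LFD-vWAT-Exos (8.51 to 10.6) and 1.78 to 2.81 in the other 6 libraries.

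**Figure D2:**
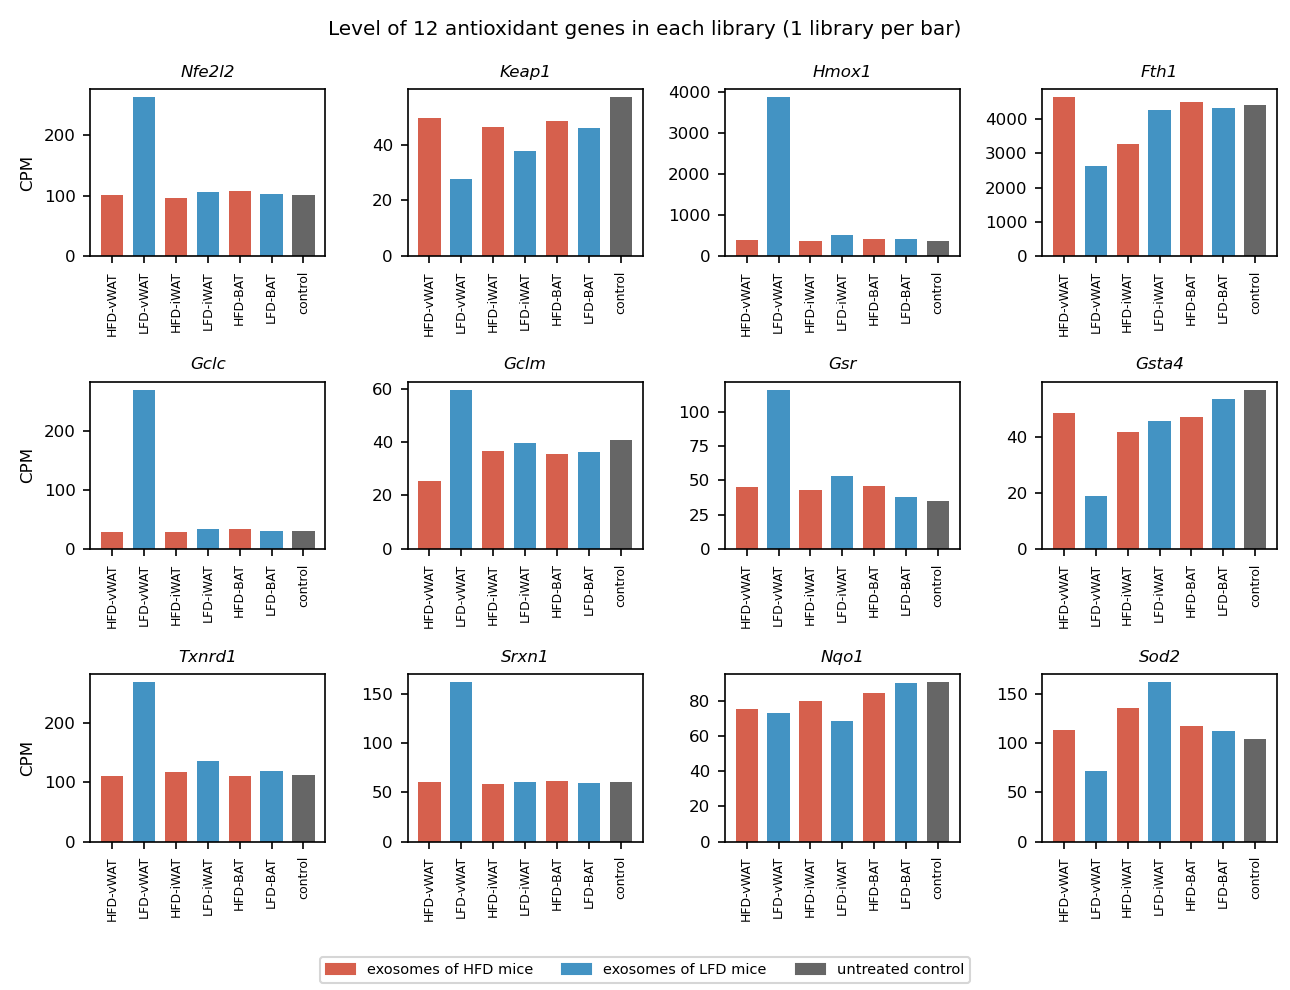
Level in CPM of 12 of the genes in each of the 7 libraries, 1 bar per library, with exosomes of HFD mice in red, of LFD mice in blue and the untreated control in grey. LFD-vWAT-Exos gives the highest bar for Nfe2l2, Hmox1, Gclc, Gclm, Gsr, Txnrd1 and Srxn1 and the lowest for Keap1, Fth1, Gsta4 and Sod2, and Nqo1 is within the range of the others.

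Glutathione is made from cystine taken up by SLC7A11, through glutamate-cysteine ligase (GCLC with its modifier GCLM) and glutathione synthetase (GSS). The first enzyme of the chain differed from its partner and from the last enzyme. Gclc was at 28.6 CPM with HFD-vWAT-Exos and 271 CPM with LFD-vWAT-Exos, at 28.3 and 34.2 CPM with HFD-iWAT-Exos and LFD-iWAT-Exos, at 34.0 and 30.2 CPM with HFD-BAT-Exos and LFD-BAT-Exos, and at 29.8 CPM in the control. It was 9.46-fold lower with HFD-vWAT-Exos than with LFD-vWAT-Exos (8.68 to 10.3) and 9.09-fold higher with LFD-vWAT-Exos than in the control (8.36 to 9.89). Outside LFD-vWAT-Exos it varied by 1.21-fold.

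Gclm was at 25.3 CPM with HFD-vWAT-Exos and 59.6 CPM with LFD-vWAT-Exos, at 36.8 and 39.5 CPM with HFD-iWAT-Exos and LFD-iWAT-Exos, at 35.5 and 36.2 CPM with HFD-BAT-Exos and LFD-BAT-Exos, and at 40.6 CPM in the control. HFD-vWAT-Exos gave its lowest level, and it was 2.35-fold lower there than with LFD-vWAT-Exos (2.11 to 2.63), a difference of -0.95 on the log2(FPKM + 1) scale. Between LFD-vWAT-Exos and the control the ratio was 1.47-fold (1.33 to 1.62), which is not apart. There were 4.54 Gclc counts per Gclm count with LFD-vWAT-Exos (4.20 to 4.92) and 0.73 to 1.13 in the other libraries, so the genes of the 2 subunits were unequal in that library. Gss ranged from 14.5 CPM with LFD-vWAT-Exos, its lowest, to 17.1 to 23.4 CPM in the others.

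Slc7a11, the cystine transporter, was the gene with the lowest level per length, at a mean of 0.386 FPKM. It had 4.84 CPM with HFD-vWAT-Exos and 12.6 CPM with LFD-vWAT-Exos, 4.60 and 5.35 CPM with HFD-iWAT-Exos and LFD-iWAT-Exos, 3.19 and 5.97 CPM with HFD-BAT-Exos and LFD-BAT-Exos, and 6.13 CPM in the control. In each depot the HFD library was lower than the LFD library, by 2.61-fold in vWAT (2.03 to 3.37). Over the control, LFD-vWAT-Exos was 2.06-fold higher (1.63 to 2.61), with a log2 ratio of 0.94 when scaled by total counts only. In the fit of diet over the 3 depots its log2 difference, HFD over LFD, was -0.85 (SE 0.33), with an adjusted p of 0.888 over all genes (edgeR quasi-likelihood F test).

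Glutathione reductase (Gsr), which restores glutathione with NADPH, was at 45.1 CPM with HFD-vWAT-Exos and 116 CPM with LFD-vWAT-Exos, at 42.7 and 53.5 CPM with HFD-iWAT-Exos and LFD-iWAT-Exos, at 45.7 and 38.2 CPM with HFD-BAT-Exos and LFD-BAT-Exos, and at 34.7 CPM in the control. The control was the lowest of the 7 libraries. Gsr was 2.58-fold lower with HFD-vWAT-Exos than with LFD-vWAT-Exos (2.38 to 2.80) and 3.35-fold higher with LFD-vWAT-Exos than in the control (3.07 to 3.66).

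The exporter of glutathione conjugates, Abcc1 (MRP1), was at 254 CPM with HFD-vWAT-Exos and 742 CPM with LFD-vWAT-Exos, at 248 and 268 CPM with HFD-iWAT-Exos and LFD-iWAT-Exos, at 254 and 249 CPM with HFD-BAT-Exos and LFD-BAT-Exos, and at 249 CPM in the control. Outside LFD-vWAT-Exos it was among the most even members, with a range of 1.08-fold. It was 2.92-fold lower with HFD-vWAT-Exos than with LFD-vWAT-Exos (2.82 to 3.01) and 2.98-fold higher with LFD-vWAT-Exos than in the control (2.88 to 3.08).

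Glutathione transferases and peroxidases did not share this pattern. Gsta4, a transferase for the lipid aldehyde 4-hydroxynonenal, was at 48.5 CPM with HFD-vWAT-Exos and 18.7 CPM with LFD-vWAT-Exos, at 41.6 and 45.7 CPM with HFD-iWAT-Exos and LFD-iWAT-Exos, at 47.2 and 53.5 CPM with HFD-BAT-Exos and LFD-BAT-Exos, and at 56.8 CPM in the control. It was 2.59-fold higher with HFD-vWAT-Exos than with LFD-vWAT-Exos (2.25 to 2.99) and 3.03-fold lower with LFD-vWAT-Exos than in the control (2.64 to 3.50). Mgst2, a microsomal transferase, had 6.47 CPM with HFD-vWAT-Exos and 2.58 CPM with LFD-vWAT-Exos, 5.54 and 7.25 CPM with HFD-iWAT-Exos and LFD-iWAT-Exos, 5.47 and 5.13 CPM with HFD-BAT-Exos and LFD-BAT-Exos, and 4.55 CPM in the control. It too was lowest with LFD-vWAT-Exos, at 33 counts, and was 2.51-fold higher with HFD-vWAT-Exos (1.71 to 3.79), a difference of 0.61 on the log2(FPKM + 1) scale.

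Per length, Gstp1 (mean 126 FPKM) and Gstm1 (66.5 FPKM) were the most abundant glutathione genes, and both share sequence with copies (38.5% and 28.8% of their 31-mers), so their counts are uncertain. Gstp1 was at 92.3 CPM with HFD-vWAT-Exos and 84.1 CPM with LFD-vWAT-Exos, at 89.8 and 106 CPM with HFD-iWAT-Exos and LFD-iWAT-Exos, at 102 and 83.6 CPM with HFD-BAT-Exos and LFD-BAT-Exos, and at 109 CPM in the control. Gstm1 was at 199.7 CPM with HFD-vWAT-Exos and 207 CPM with LFD-vWAT-Exos, at 163 and 184 CPM with HFD-iWAT-Exos and LFD-iWAT-Exos, at 191 and 185 CPM with HFD-BAT-Exos and LFD-BAT-Exos, and at 206 CPM in the control. Neither was apart in any of the 11 pairs. Gstm2 was at 112 CPM with LFD-vWAT-Exos and 162 to 182 CPM in the others, and Mgst1 at 93.3 CPM against 121 to 137 CPM. The peroxidases Gpx1, which reduces soluble peroxides, and Gpx4, which reduces lipid peroxides in membranes, were also lowest with LFD-vWAT-Exos, at 98.4 CPM against 112 to 124 CPM, and at 56.7 CPM against 79.4 to 87.8 CPM. Gpx4 is uncertain too, with 38.9% of its 31-mers in other genes, mostly a pseudogene.

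Thioredoxin reduces disulfides and is itself restored by thioredoxin reductase, while sulfiredoxin (SRXN1) repairs overoxidized peroxiredoxins. The 2 repair enzymes were high with LFD-vWAT-Exos and the substrates among the members, Txn1 and Prdx1, were not. Txnrd1 was at 110.3 CPM with HFD-vWAT-Exos and 268 CPM with LFD-vWAT-Exos, at 117 and 136 CPM with HFD-iWAT-Exos and LFD-iWAT-Exos, at 110.5 and 118 CPM with HFD-BAT-Exos and LFD-BAT-Exos, and at 111 CPM in the control. Srxn1 was at 60.2 CPM with HFD-vWAT-Exos and 162 CPM with LFD-vWAT-Exos, at 58.5 and 61.2 CPM with HFD-iWAT-Exos and LFD-iWAT-Exos, at 61.6 and 59.4 CPM with HFD-BAT-Exos and LFD-BAT-Exos, and at 60.9 CPM in the control. The 6 libraries other than LFD-vWAT-Exos differed by 1.05-fold for Srxn1, the smallest range of the 36 genes. With HFD-vWAT-Exos, Txnrd1 was 2.43-fold (2.30 to 2.56) and Srxn1 2.70-fold lower (2.52 to 2.89) than with LFD-vWAT-Exos.

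Thioredoxin itself (Txn1) was lowest with LFD-vWAT-Exos. Its levels were 70.0 CPM with HFD-vWAT-Exos and 54.0 CPM with LFD-vWAT-Exos, 73.9 and 89.1 CPM with HFD-iWAT-Exos and LFD-iWAT-Exos, 79.8 and 83.2 CPM with HFD-BAT-Exos and LFD-BAT-Exos, and 84.0 CPM in the control. Prdx1, a peroxiredoxin of the cytosol, was at 211 CPM with HFD-vWAT-Exos and 245 CPM with LFD-vWAT-Exos. Its levels were 206 and 253 CPM with HFD-iWAT-Exos and LFD-iWAT-Exos, 247 and 264 CPM with HFD-BAT-Exos and LFD-BAT-Exos, and 263 CPM in the control. For Prdx1 the LFD-vWAT-Exos library stood in the middle of the range, and its promoter window held an ARE core, as did those of Txnrd1 and Srxn1.

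NADPH, the reductant of both cycles, comes from the pentose phosphate pathway (G6PDX, PGD, then TALDO1 and TKT) and from malic enzyme (ME1). The entry enzyme and the next differed. G6pdx was at 69.4 CPM with HFD-vWAT-Exos and 62.4 CPM with LFD-vWAT-Exos, at 63.4 and 65.2 CPM with HFD-iWAT-Exos and LFD-iWAT-Exos, at 67.2 and 71.0 CPM with HFD-BAT-Exos and LFD-BAT-Exos, and at 74.5 CPM in the control. It shares 23.6% of its 31-mers with other genes. Pgd was at 58.1 CPM with HFD-vWAT-Exos and 170.3 CPM with LFD-vWAT-Exos, at 47.9 and 60.9 CPM with HFD-iWAT-Exos and LFD-iWAT-Exos, at 55.8 and 57.0 CPM with HFD-BAT-Exos and LFD-BAT-Exos, and at 65.4 CPM in the control. Pgd was 2.93-fold lower with HFD-vWAT-Exos than with LFD-vWAT-Exos (2.73 to 3.14), while G6pdx was 1.11-fold higher (1.02 to 1.21).

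The 2 enzymes of the non-oxidative branch lay on opposite sides as well. Tkt (transketolase) was at 156 CPM with HFD-vWAT-Exos and 299 CPM with LFD-vWAT-Exos, at 158 and 173 CPM with HFD-iWAT-Exos and LFD-iWAT-Exos, at 171 and 165 CPM with HFD-BAT-Exos and LFD-BAT-Exos, and at 164 CPM in the control. Taldo1 (transaldolase) was at 46.6 CPM with HFD-vWAT-Exos and 31.2 CPM with LFD-vWAT-Exos, at 42.3 and 52.6 CPM with HFD-iWAT-Exos and LFD-iWAT-Exos, at 43.3 and 47.2 CPM with HFD-BAT-Exos and LFD-BAT-Exos, and at 52.8 CPM in the control. Against the control, LFD-vWAT-Exos gave Tkt 1.83-fold higher (1.75 to 1.91) and Taldo1 1.69-fold lower (1.51 to 1.90), both short of 2-fold. Me1, uncertain with 36.9% of its 31-mers shared, was at 87.2 CPM with LFD-vWAT-Exos and 72.1 to 80.6 CPM in the others.

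Heme oxygenase (Hmox1) opens heme to biliverdin and frees its iron, which ferritin (FTH1 and FTL1) stores. Together with Gclc, it stood farthest from the other libraries with LFD-vWAT-Exos. Hmox1 was at 392 CPM with HFD-vWAT-Exos and 3885 CPM with LFD-vWAT-Exos, at 366 and 516 CPM with HFD-iWAT-Exos and LFD-iWAT-Exos, at 432 and 417 CPM with HFD-BAT-Exos and LFD-BAT-Exos, and at 382 CPM in the control. It was 9.91-fold lower with HFD-vWAT-Exos than with LFD-vWAT-Exos (9.68 to 10.1) and 10.2-fold higher with LFD-vWAT-Exos than in the control (9.95 to 10.4). LFD-iWAT-Exos gave the next level, 1.41-fold above the lowest of the 6 other libraries. Macrophages of the spleen and liver also express Hmox1 at a high level, and the sum of macrophage markers, 118 CPM with LFD-vWAT-Exos and 33.7 CPM in the control, moved with it while Adgre1 and Itgam stayed below 1 CPM. The part of such cells was not tested.

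Of the ferritin genes, Fth1 was the most abundant member per length (mean 4636 FPKM), and both had their lowest level where Hmox1 had its highest. Fth1 was at 4639 CPM with HFD-vWAT-Exos and 2644 CPM with LFD-vWAT-Exos, at 3261 and 4269 CPM with HFD-iWAT-Exos and LFD-iWAT-Exos, at 4484 and 4332 CPM with HFD-BAT-Exos and LFD-BAT-Exos, and at 4397 CPM in the control. LFD-vWAT-Exos was lowest and HFD-iWAT-Exos next. Ftl1, of which 64.1% of the 31-mers occur in copies, was at 1534 CPM with HFD-vWAT-Exos and 993 CPM with LFD-vWAT-Exos, at 1303 and 1058 CPM with HFD-iWAT-Exos and LFD-iWAT-Exos, at 1587 and 1124 CPM with HFD-BAT-Exos and LFD-BAT-Exos, and at 1152 CPM in the control. In each depot the HFD library had more Ftl1 than the LFD library. The number of Fth1 counts per Ftl1 count ranged from 2.50 with HFD-iWAT-Exos to 4.04 with LFD-iWAT-Exos. Blvrb (biliverdin reductase B) was at 24.3 CPM with LFD-vWAT-Exos and 35.6 to 44.4 CPM in the others.

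Among the enzymes against superoxide, peroxide and quinones, the mitochondrial superoxide dismutase Sod2 and catalase (Cat) differed from the cytosolic Sod1 and from Nqo1. Sod1 was at 96.8 CPM with HFD-vWAT-Exos and 104 CPM with LFD-vWAT-Exos, at 91.5 and 106 CPM with HFD-iWAT-Exos and LFD-iWAT-Exos, at 100.3 and 101 CPM with HFD-BAT-Exos and LFD-BAT-Exos, and at 106 CPM in the control. Sod2, uncertain with 26.7% of its 31-mers shared, was at 113 CPM with HFD-vWAT-Exos and 71.4 CPM with LFD-vWAT-Exos, at 136 and 162 CPM with HFD-iWAT-Exos and LFD-iWAT-Exos, at 117 and 112 CPM with HFD-BAT-Exos and LFD-BAT-Exos, and at 105 CPM in the control. Both iWAT libraries were thus above all others for Sod2, and LFD-vWAT-Exos was 2.26-fold below LFD-iWAT-Exos (2.11 to 2.43). The number of Sod2 counts per Sod1 count was 0.69 with LFD-vWAT-Exos, 1.48 with HFD-iWAT-Exos, 1.52 with LFD-iWAT-Exos and 0.99 in the control. Cat was at 123 CPM with LFD-vWAT-Exos and 60.1 to 71.3 CPM in the others.

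Nqo1, the quinone reductase often used as a readout of NRF2, was at 75.6 CPM with HFD-vWAT-Exos and 73.0 CPM with LFD-vWAT-Exos, at 80.4 and 68.5 CPM with HFD-iWAT-Exos and LFD-iWAT-Exos, at 84.6 and 90.3 CPM with HFD-BAT-Exos and LFD-BAT-Exos, and at 90.9 CPM in the control. It was not apart in any pair, and LFD-vWAT-Exos and HFD-vWAT-Exos did not differ beyond counting error (1.03-fold, 0.95 to 1.12). Osgin1, an oxidative stress induced growth inhibitor, had 9.22 CPM with HFD-vWAT-Exos and 16.9 CPM with LFD-vWAT-Exos, 8.54 and 7.25 CPM with HFD-iWAT-Exos and LFD-iWAT-Exos, 9.98 and 11.5 CPM with HFD-BAT-Exos and LFD-BAT-Exos, and 11.1 CPM in the control. It was apart only between LFD-vWAT-Exos and LFD-iWAT-Exos, at 2.32-fold (1.90 to 2.85), a difference of 0.74 on the log2(FPKM + 1) scale.

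Metallothionein genes were the only members that differed by at least 2-fold among the 6 libraries other than LFD-vWAT-Exos (2 of 36, or 5.56%, against 14.2% of 12873 genes). That background holds many genes of low level. Among genes with a mean of at least 20 CPM the shares were 6.25% of 32 members and 3.78% of all genes. Mt1 was at 339 CPM with HFD-vWAT-Exos and 1489.8 CPM with LFD-vWAT-Exos, at 272 and 540.4 CPM with HFD-iWAT-Exos and LFD-iWAT-Exos, at 515 and 330.5 CPM with HFD-BAT-Exos and LFD-BAT-Exos, and at 232 CPM in the control. Mt2 shares 58.1% of its 31-mers with other genes, mostly the gene model Gm45774. It was at 25.8 CPM with HFD-vWAT-Exos and 84.1 CPM with LFD-vWAT-Exos, and at 29.9 and 73.1 CPM with HFD-iWAT-Exos and LFD-iWAT-Exos. With HFD-BAT-Exos and LFD-BAT-Exos it was at 43.8 and 27.0 CPM, and in the control at 16.6 CPM. For both genes the control was lowest and the 3 highest libraries were LFD-vWAT-Exos, LFD-iWAT-Exos and HFD-BAT-Exos, in that order.

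Against the control, Mt1 was 6.42-fold (6.22 to 6.62) and Mt2 5.07-fold higher (4.50 to 5.72) with LFD-vWAT-Exos. With LFD-iWAT-Exos the ratio was 2.33 for Mt1 (2.25 to 2.40) and 4.40 for Mt2 (3.93 to 4.94), and they were the only 2 of the 36 genes apart in that pair (5.12% of all genes were, in either direction). With HFD-BAT-Exos Mt1 was at a ratio of 2.22 (2.15 to 2.29) and Mt2 of 2.64 (2.34 to 2.98), again the only 2 (2.27% of all genes). The other 3 AT-Exos libraries had ratios of 1.17 to 1.46 for Mt1 and 1.55 to 1.80 for Mt2, and no member was apart with HFD-vWAT-Exos (1.99% of all genes), HFD-iWAT-Exos (2.90%) or LFD-BAT-Exos (1.76%). All 6 ratios share the control library.

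Between diets, both metallothioneins were lower with HFD exosomes of the white depots and higher with those of BAT. HFD-vWAT-Exos gave 4.40-fold less Mt1 (4.28 to 4.52) and 3.26-fold less Mt2 (2.94 to 3.62) than LFD-vWAT-Exos. HFD-iWAT-Exos gave 1.98-fold less Mt1 (1.92 to 2.05) and 2.45-fold less Mt2 (2.22 to 2.70) than LFD-iWAT-Exos, and Mt2 was the only member apart in that pair (2.54% of all genes). HFD-BAT-Exos gave 1.56-fold more Mt1 (1.51 to 1.61) and 1.62-fold more Mt2 (1.47 to 1.80) than LFD-BAT-Exos, with no member apart (1.97% of all genes). With 1 library a group, whether diet acted differently in the depots could not be tested.

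The 2 genes did not keep a fixed ratio. There were 17.7 Mt1 counts per Mt2 count with LFD-vWAT-Exos (16.7 to 18.9), 9.11 with HFD-iWAT-Exos (8.33 to 9.98), 7.40 with LFD-iWAT-Exos (7.04 to 7.77) and 14.0 in the control (12.6 to 15.6), with the other 3 libraries between 11.8 and 13.2. The 2 iWAT libraries thus had more Mt2 for their Mt1 than the others.

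**Figure D3:**
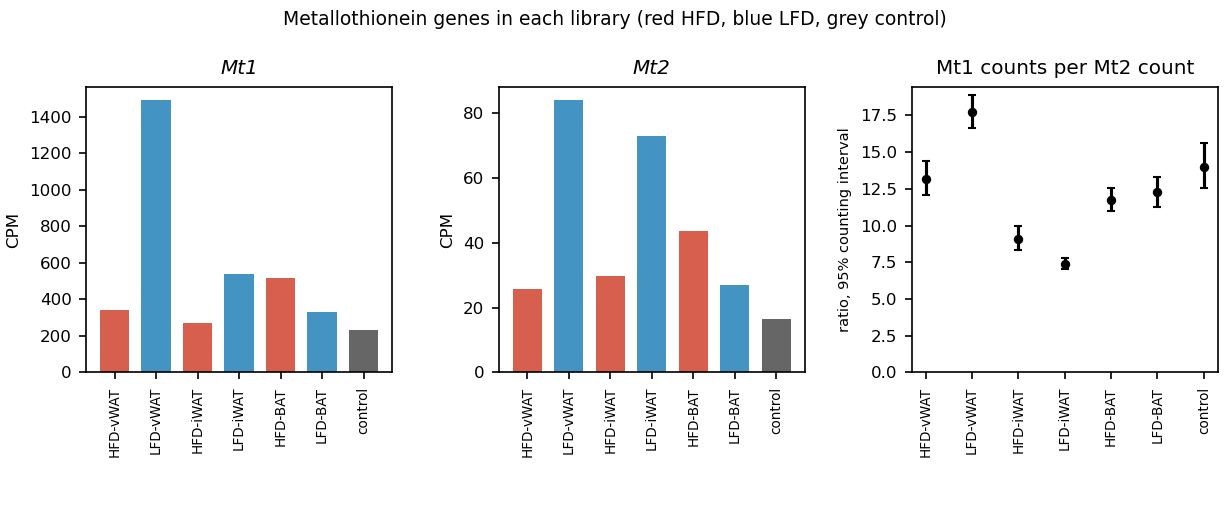
Level in CPM of Mt1 and Mt2 in each of the 7 libraries (bars, HFD red, LFD blue, control grey) and the number of Mt1 counts per Mt2 count with its exact 95% counting interval (points). LFD-vWAT-Exos, LFD-iWAT-Exos and HFD-BAT-Exos stand above the other libraries for both genes, and the ratio is lowest with LFD-iWAT-Exos.

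The MRE cores TGCACNC and TGCGCNC, searched on both strands, occurred in 25.7% of all windows, 3 times in that of Mt1 and 4 times in that of Mt2. The 250 bases before each start site are shown for these 2 genes because they alone differed in several libraries, with the MRE cores in capitals. They lie at chr8:94178839-94179088 for Mt1 and chr8:94172368-94172617 for Mt2, both on the plus strand. The cores in capitals start 23 bases before the start site of Mt1 and 223, 128 and 50 bases before that of Mt2, and the remaining ones lie after the start sites. The ARE core of Mt2 shown above is in the same stretch, and that of Mt1 held none.
Mt1: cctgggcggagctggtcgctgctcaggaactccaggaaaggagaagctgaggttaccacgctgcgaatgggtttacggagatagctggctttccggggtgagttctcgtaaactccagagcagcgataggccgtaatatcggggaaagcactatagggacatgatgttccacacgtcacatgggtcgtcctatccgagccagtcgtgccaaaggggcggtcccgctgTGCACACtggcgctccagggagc
Mt2: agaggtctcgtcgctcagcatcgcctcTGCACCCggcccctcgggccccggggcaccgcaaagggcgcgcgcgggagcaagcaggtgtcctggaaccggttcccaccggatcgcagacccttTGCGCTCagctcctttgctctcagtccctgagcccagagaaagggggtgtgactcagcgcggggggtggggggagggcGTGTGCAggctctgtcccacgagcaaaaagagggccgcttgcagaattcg

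Outside LFD-vWAT-Exos the other 34 genes were close. The median range over the 6 libraries was 1.28-fold for the 36 genes and 1.31-fold for all genes. At a mean of at least 20 CPM it was 1.26-fold for 32 members and 1.23-fold for all genes. HFD-iWAT-Exos had the lowest level of the 7 in 10 of the 36 genes (9.53% of all genes) and the highest in 0 (8.87% of all genes). The control was highest in 8 (12.8% of all genes) and lowest in 3 (12.4% of all genes), namely Mt1, Mt2 and Gsr. Over the control, HFD-iWAT-Exos had a negative log2 ratio in 28 of the 36 genes (50.4% of all genes), with a median of -0.14, and HFD-vWAT-Exos in 26 (49.6% of all genes), with a median of -0.10. HFD-iWAT-Exos had a lower level than LFD-iWAT-Exos in 29 of the 36 genes (49.7% of all genes), with a median of -0.14. HFD-vWAT-Exos over HFD-iWAT-Exos had no member apart (2.31% of all genes). These shifts are small beside the 2-fold limit, and no replicate shows how large they are between like cultures.

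**Figure D4:**
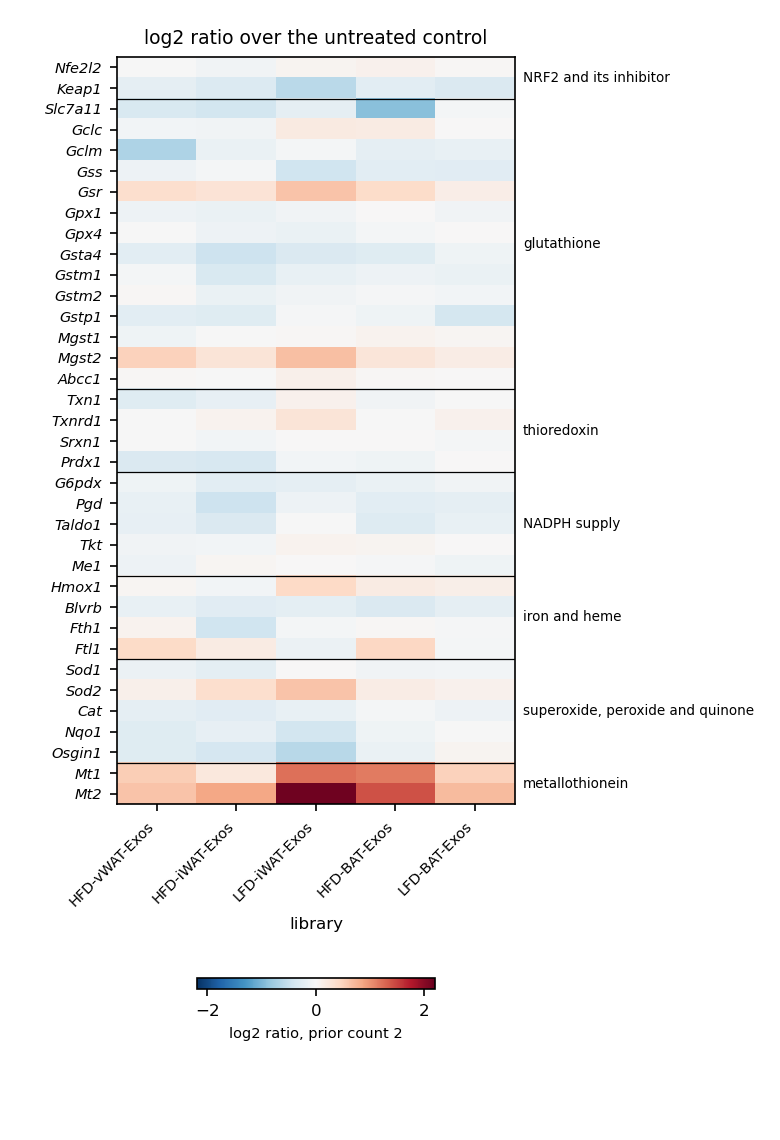
Log2 ratio over the untreated control (colour, prior count of 2) of the 36 genes (rows, by group) in 5 AT-Exos libraries (columns). The metallothioneins are the darkest red, with LFD-iWAT-Exos for Mt2 the darkest, and most other cells are pale.

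Tests over several libraries called none of the 36 genes. For HFD over LFD with depot as a block, 0% of 13441 genes were called at an adjusted p under 0.05 by edgeR's quasi-likelihood F test, and likewise 0% for vWAT over iWAT and 0% for BAT over iWAT with diet as a block. The smallest adjusted p among the members was 0.888 for diet and 0.777 for vWAT over iWAT. At an unadjusted p under 0.05 there were 73, 366 and 124 of all genes and 1, 0 and 0 members, and DESeq2 called 8, 10 and 2 genes, none of them a member. The diet fit differed most when a BAT library was left out. Without HFD-BAT-Exos 838 genes and 6 members had an unadjusted p under 0.05, with 11 genes called, and the smallest adjusted p of a member was 0.186, and without LFD-BAT-Exos these were 831, 6, 10 and 0.218, with no member called in either. For AT-Exos over the control 0.00709% of 14102 genes were called, 1 gene and no member, with DESeq2 calling 5 genes and no member. In that fit Mt2 had a log2 difference of 1.51 (SE 0.77, adjusted p = 1.00 by edgeR) and Mt1 of 1.33 (SE 0.96, adjusted p = 1.00), although both were higher than in the control in 6 of 6 AT-Exos libraries. Without LFD-vWAT-Exos these were 1.27 (SE 0.59) and 0.78 (SE 0.37), with an adjusted p of 0.927 for both.

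Of the fits that left out 1 library, 1 called any member. With HFD-vWAT-Exos left out, LFD-vWAT-Exos alone stands for vWAT against iWAT, with 1 residual degree of freedom and the lone library assumed to vary like the others. In this fit 14 of the 36 genes were called higher and 9 lower, beside 19.8% and 20.6% of 13922 genes. By edgeR's test Gclc had a log2 difference of 3.10 (SE 0.18, adjusted p = 0.000298), Hmox1 of 3.05 (SE 0.23, adjusted p = 0.00046), Nfe2l2 of 1.37 (SE 0.15, adjusted p = 0.000933) and Gsta4 of -1.29 (SE 0.18, adjusted p = 0.002). The other 11 called higher were Srxn1, Abcc1, Pgd, Txnrd1, Cat, Gsr, Tkt, Mt1, Osgin1, Gclm and Slc7a11, and the other 8 called lower were Sod2, Txn1, Taldo1, Gstm2, Blvrb, Mgst2, Gpx4 and Mgst1. Keap1 (log2 difference -0.49, adjusted p = 0.0672), Mt2 (0.62, adjusted p = 0.348) and Nqo1 (0.02, adjusted p = 0.932) were not called. The test compares this library with the spread of the rest and is no replicate check of the treatment.

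The wider antioxidant pathway was described by 105 further genes, of which 104 were in the table and 90 reached 1 CPM in a library. With LFD-vWAT-Exos over the control 14 of the 90 were apart and higher and 24 apart and lower, beside 13.2% and 17.3% of all genes, with a median log2 ratio of -0.33 (-0.04 for all genes). With HFD-vWAT-Exos over LFD-vWAT-Exos 24 were higher and 13 lower, beside 17.6% and 12.0% of all genes, with a median of 0.33 (0.04 for all genes). The small MAF partners of NRF2 were on the side of Nfe2l2. Maff was at 34.1 CPM with HFD-vWAT-Exos and 278 CPM with LFD-vWAT-Exos, at 38.1 and 55.6 CPM with HFD-iWAT-Exos and LFD-iWAT-Exos, at 44.2 and 27.5 CPM with HFD-BAT-Exos and LFD-BAT-Exos, and at 22.6 CPM in the control, and it was 8.16-fold lower with HFD-vWAT-Exos than with LFD-vWAT-Exos (7.54 to 8.85). With LFD-vWAT-Exos over the control, Maff was 12.3-fold (11.2 to 13.6), Mafk 2.41-fold (2.16 to 2.68) and Mafg 2.09-fold higher (1.96 to 2.22). Sqstm1, the autophagy receptor p62 that binds KEAP1, was 1.96-fold lower with HFD-vWAT-Exos than with LFD-vWAT-Exos (1.91 to 2.00), and not apart.

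Other pathway genes with LFD-vWAT-Exos over the control were as unequal as the members. In NADPH supply, the mitochondrial enzyme genes Me2 (6.93-fold, 6.53 to 7.35) and Nadk2 (4.04-fold, 3.79 to 4.30) were higher, and Idh2, the isocitrate dehydrogenase that makes NADPH in mitochondria, was 5.67-fold lower (5.06 to 6.36). Of the glutathione genes, Ggt5 was 8.20-fold lower from 5 counts with LFD-vWAT-Exos (3.36 to 26.0), Gstk1 6.60-fold lower (3.82 to 12.4) and Mgst3 5.31-fold lower (4.41 to 6.45). In the thioredoxin group Txnrd2 was 3.33-fold higher (2.75 to 4.06), Msra 2.98-fold higher (2.28 to 3.91), and Prdx2 was 2.69-fold lower (2.53 to 2.86). In iron handling, Tfrc, the transferrin receptor, was 3.08-fold higher (2.82 to 3.36), Abcb6, uncertain through shared reads, 4.09-fold higher (3.43 to 4.90) and Slc40a1, the iron exporter ferroportin, 4.19-fold lower (3.13 to 5.71). Of the zinc genes, the exporter Slc30a1 was 3.79-fold higher (2.96 to 4.88), while Mtf1 was 1.55-fold higher (1.35 to 1.78) and not apart. Ugdh was 4.02-fold higher (3.89 to 4.14), and Ugt1a7c, which shares sequence with its family, was 8.72-fold lower (6.13 to 12.8), as was Aldh3a1 by 5.56-fold (3.90 to 8.16).

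With HFD-vWAT-Exos over LFD-vWAT-Exos, which shares the LFD-vWAT-Exos library, Me2, Nadk2, Txnrd2, Msra, Tfrc, Abcb6, Slc30a1 and Ugdh were apart and lower and Idh2, Ggt5, Gstk1, Mgst3, Prdx2, Slc40a1, Ugt1a7c and Aldh3a1 apart and higher. Gstm7, a further transferase, was 6.79-fold higher from 8 counts with LFD-vWAT-Exos (3.30 to 16.2). With LFD-iWAT-Exos over the control 3 of the 90 genes were apart and higher and 4 apart and lower, beside 5.12% of all genes in either direction. Among them Maff was 2.46-fold higher (2.22 to 2.73), Bach2, a transcriptional repressor, 3.20-fold higher from 16 counts in the control (1.81 to 5.97), and Ugt1a6a, uncertain through shared reads, 3.83-fold higher (3.34 to 4.40). Ncoa4, the receptor that takes ferritin to autophagy, was 3.64-fold lower (3.11 to 4.27) and Aldh3a1 2.07-fold lower (1.72 to 2.50). In that pair Slc30a1 and Mtf1 did not differ beyond counting error, at 1.15-fold lower (0.85 to 1.55) and 1.07-fold higher (0.94 to 1.22), while Mt1 and Mt2 were apart.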

How the data were processed

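RNA of 7 libraries of 3T3-L1 cells was sequenced as paired ends. Per the methods and the submitters' processing notes, fastp, HISAT2 and StringTie were used by the authors for trimming, mapping and quantification. The methods name a human genome whereas the table lists mouse genes, and which mouse build was used is not given in the sources used here. The deposited table holds the authors' raw counts per gene and their FPKM.

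TMM factors (edgeR 4.0.16, R 4.3.3) were computed after filterByExpr, at 0.950 in LFD-vWAT-Exos and between 1.00 and 1.01 elsewhere, and applied to the counts. Ratios between 2 libraries carry a Clopper-Pearson 95% interval (exact), which covers counting error only, since reads carried no molecular identifiers. A gene with at least 1 CPM in either library was apart when the interval left out equal levels and the size of the log2 ratio (prior count 2) reached 1. The 11 pairs were HFD over LFD in each depot, each AT-Exos library over the control, and vWAT over iWAT within each diet. Diet, depot and AT-Exos effects were fitted across libraries by the quasi-likelihood F test of edgeR, with Benjamini-Hochberg adjustment over all genes (2 residual degrees of freedom for diet and depot, 5 for AT-Exos). The SE was derived from the test. As alternatives, DESeq2 1.42.0 and voom of limma 3.58.1 were run, and the scripts were tested on simulated data.

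A gene was called uncertain where 20% or more of its 31-mers also lay in GENCODE transcripts of another gene, as for 8 of the 36. Values per library were given for core genes of the pathway, for every member apart in any pair and for the 2 members of each group with the highest mean FPKM. Pathway genes were named when among the 3 of their group with the largest log2 ratio and at least 50 counts. The members, lists and rules were chosen with earlier results of these data known. A planned look at protein sequences was not run.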

Additional observations from a re-analysis of the deposited data

How the results depend on the processing

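With 1 library a group there were no replicate numbers to pair, and the only pairing was that of the diets within depots, which the diet fit used as its block. Of the members' counts and ratios under the alternatives, 206 counts stayed within 1.5 times their value, 6 moved, 257 ratios kept their direction and their side of the 2-fold limit, 8 fell below that limit and 0 reversed. Most of the 206 counts were 0 in the main setting and stayed 0, so they say little of how firm the results are. For HFD-vWAT-Exos over LFD-vWAT-Exos, members apart and higher were 1 in place of 2 at a minimum of 10 CPM and 1 with FPKM plus 1. For HFD-iWAT-Exos over LFD-iWAT-Exos, members apart and lower were 2 in place of 1 with DESeq2 size factors. For LFD-vWAT-Exos over the control, members apart and lower were 1 in place of 2 with FPKM plus 1. Leaving out each library in turn gave 0 to 14 members called higher and 0 to 9 called lower for vWAT over iWAT, where the main value was 0 and the upper ends came from the fit without HFD-vWAT-Exos. With total counts in place of TMM the median log2 ratio of all genes was 0.12 in place of 0.04 for HFD-vWAT-Exos over LFD-vWAT-Exos and -0.13 in place of -0.04 for LFD-vWAT-Exos over the control. Among all genes apart with HFD-vWAT-Exos over the control, 57.5% were higher, but 39.7% at a minimum of 10 CPM and 39.6% with FPKM plus 1. Over all genes, leaving out each library in turn gave 0 to 11 called for diet in place of 0, 0 to 5623 for vWAT over iWAT in place of 0 (5623 without HFD-vWAT-Exos, at most 12 otherwise), 0 to 7 for BAT over iWAT in place of 0 and 0 to 11 for AT-Exos in place of 1. Depth limits Mgst2 most, at 33 counts with LFD-vWAT-Exos.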
